A study of Rattus norvegicus with 6 samples.

Results

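The renal cortex breaks down, converts and makes amino acids, and the enzymes for this work form the set described here. It holds 37 genes picked by name from their routes, with no measured value in the rule: enzymes of tyrosine, tryptophan and lysine breakdown, of arginine, proline and creatine metabolism, of glycine, serine and one-carbon metabolism, of transsulfuration, of branched-chain amino acid breakdown, of D-amino acid oxidation with a related aminotransferase, and the aminoacylases. Of the 37, 35 had a probe that carries a RefSeq transcript accession of the gene, and all 35 passed the filter on dim probes, among 11748 genes tested in all. Gldc, the decarboxylase of the glycine cleavage system, and Shmt1, the cytosolic serine hydroxymethyltransferase, had no probe named here and are not analysed.

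Both groups were male Sprague-Dawley rats, 5 weeks old at purchase. One group of 3 rats was given corn oil and the other 3 received 2-amino-4-nitrophenol, a nitrated aminophenol known as a hair dye ingredient. The dose was 750 mg/kg/day, and dosing lasted 4 weeks in both groups. The RNA of each renal cortex, a tissue of many cell types, was read on 1 single-colour oligonucleotide array. In such RNA, fewer cells of a type and less RNA per cell cannot be told apart. A level here is the log2 of the processed probe signal minus the array's 75th percentile, so 0 is the 75th percentile of an array and a difference of 1 is a doubling. Levels of different genes come from different probes and are not compared with each other.

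As background, the proximal tubule reabsorbs nearly all filtered amino acids and is a main site of their further metabolism. It makes serine from glycolytic intermediates, arginine from citrulline, and guanidinoacetate, the precursor of creatine. Tyrosine, tryptophan, lysine and the branched-chain amino acids are oxidised in stepwise mitochondrial and cytosolic routes, and one-carbon metabolism passes carbon units from serine, glycine and choline derivatives to folate and methionine.

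None of the 35 enzymes passed an adjusted p of 0.05 in limma over all genes, a threshold that 0.0255% of all genes tested passed. At an unadjusted p under 0.05, 8 members were higher in the treated cortex and 1 was lower. The higher members were Aadat, Arg2, Hgd, Fah, Cth, Hibadh, Oat and Acy3, and the lower member was Acmsd. The 8 make up 22.9% of the members, against 14.3% of all genes tested, and the 1 lower member makes up 2.86%, against 7.29% of all genes. The array values did not overlap between the groups for 9 members that were higher (the same 8 and Bckdha) and for 2 that were lower (Acmsd and Dmgdh). Over all genes these shares were 20.1% for higher and 10.1% for lower. Leaving out 1 array at a time gave 4 to 9 higher members, with the fewest, 4, without corn oil replicate 3 or treated replicate 3. In these fits 1533 to 3610 of the 11748 genes were past the unadjusted p in either direction. Aadat, Arg2, Hgd and Fah were past the unadjusted p in all 6 of these fits, and Acmsd in 3 of the 6, missing it without corn oil replicate 1, corn oil replicate 3 or treated replicate 1. Cth and Hibadh were past it in 3 of the 6 fits, and Oat and Acy3 in 2. Another fit weighted the arrays by their scatter around the group means, estimated from these same 6 arrays. It put 9 members past the adjusted threshold, all higher, along with 2010 of the 11748 genes. The median log2 change over the 35 members was 0.11, beside 0.04 over all genes, and 25 members had a positive and 10 a negative change. The median was 0.05 without treated replicate 2.

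Most of these enzymes give bright probes, and brightness moved with the change. Of the 35 members, 26 lie among the 2 brightest deciles of all genes tested, with 18 in the brightest decile. Genes of the brightest decile had a median log2 change of 0.23, and 42.6% of them were higher at an unadjusted p under 0.05. In the decile below it the median was 0.13 and the share 22.0%. Of the 8 higher members, 6 lie in these 2 deciles, and 18 of the 35 members had a change above the median of their own decile. The part of brightness in the members' changes was not tested.

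Quantile normalization, which gives every array the same distribution of signals, left the bright genes without that shift: the median change of the brightest decile was 0.00051. Under it the members' median change was -0.02 beside -0.0041 over all genes, so its sign turned. Again 0 members passed the adjusted threshold, which 0.034% of all genes passed. Aadat, Arg2, Hgd and Cth were higher at an unadjusted p under 0.05 (11.4% of the members, against 8.23% of all genes). Acmsd, Prodh2, Ass1, Agxt2, Dmgdh and Bhmt were lower (17.1% of the members, against 9.53% of all genes). Groups did not overlap for 4 members that were higher and 9 that were lower, against 12.4% and 13.6% of all genes. Aadat, Arg2, Hgd, Cth and Acmsd were therefore past the unadjusted p under both normalizations, in the same direction. Scaling on the spike-in controls moved the change of every gene by the same -0.32, because both scalings subtract 1 value per array. On that scale the change was 0.78 for Aadat, 0.69 for Arg2, 0.16 for Hgd, 0.05 for Fah and 0.03 for Cth. It was 0.01 for Acy3, -0.01 for Oat, -0.05 for Hibadh and -0.77 for Acmsd.

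**Figure D1:**
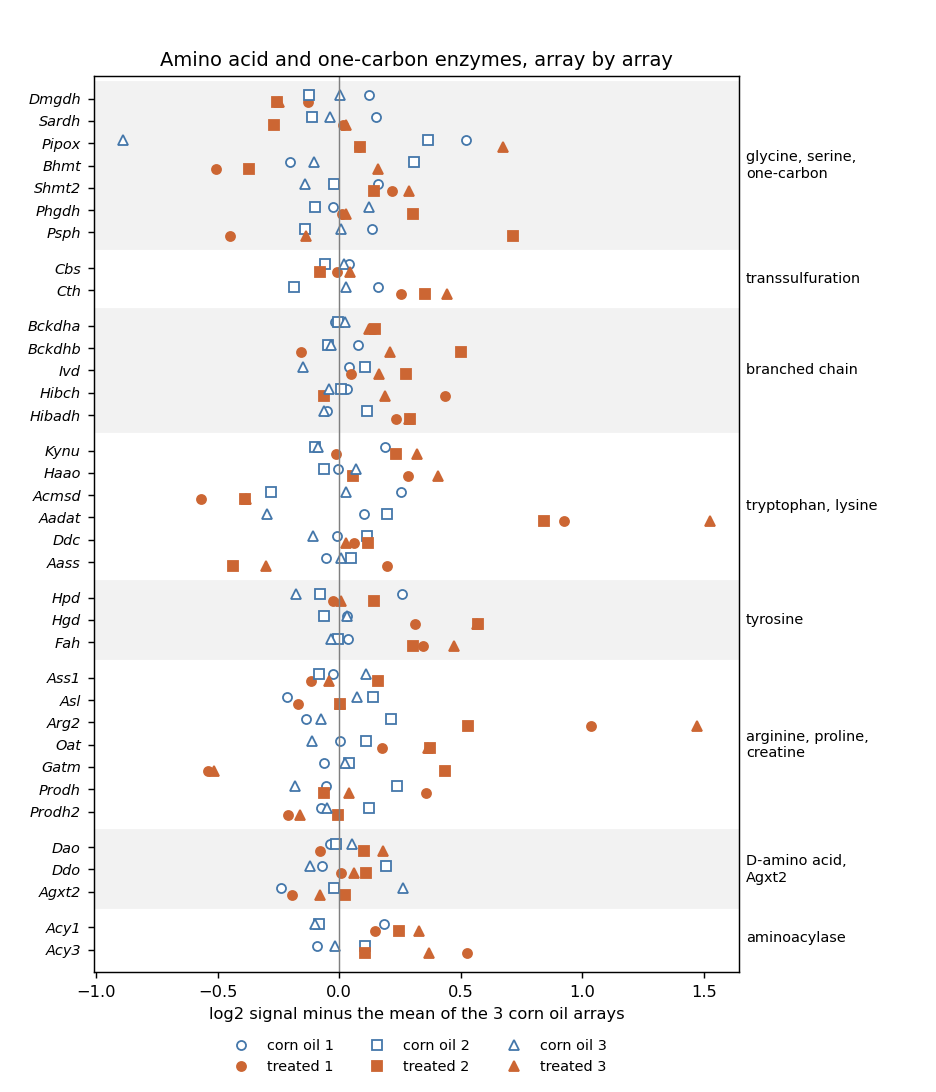
Level of each of the 35 enzymes on each array, as the log2 signal minus the mean of the 3 corn oil arrays (x axis), with open symbols for corn oil, filled symbols for treated rats and 1 symbol shape per replicate number. All treated symbols of Aadat and Arg2 lie to the right of 0.5, those of Acmsd lie to the left of all 3 corn oil symbols, and most other rows overlap or lie close together.

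Tyrosine is broken down by transamination, then by Hpd (4-hydroxyphenylpyruvate dioxygenase), Hgd (homogentisate dioxygenase) and, as the last step, Fah (fumarylacetoacetate hydrolase). Hgd and Fah were higher on every treated array, and Hpd was not. Hgd read 6.21, 6.12 and 6.21 on the corn oil arrays and 6.49, 6.75 and 6.75 on the treated arrays. The lowest treated array was thus above the highest corn oil array. The difference was 0.48 ± 0.10 (log2, SE), or 1.40-fold (limma, adjusted p = 0.118), and a second probe of the gene gave 0.42. Fah read 4.75, 4.71 and 4.68 in corn oil rats and 5.06, 5.02 and 5.19 in treated rats, a difference of 0.37 ± 0.08 or 1.29-fold (limma, adjusted p = 0.123). Its groups lay apart by several times the spread of the corn oil arrays (SD 0.03). For Hpd the values were 6.24, 5.91 and 5.81 in corn oil rats and 5.96, 6.13 and 5.99 in treated rats. These overlapped, with a difference of 0.04 ± 0.13 and a 95% interval from -0.28 to 0.37. Quantile normalization lowered the 3 differences to 0.21 ± 0.07 for Hgd, 0.17 ± 0.09 for Fah and -0.21 ± 0.14 for Hpd, so the direction of Hpd turned.

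The sequences before the starts of Hpd and Hgd are shown because these neighbours on the tyrosine route differed in their values. Those of Cth and Oat, which are described further on, are shown with them as members that were higher. They are the 250 bases before the gene start used in the RefSeq promoter table of the GRCr8 build, written 5′ to 3′ on the gene's strand, with matches to searched motifs in capitals. Hpd lies at chr12:39041996-39042245 on the plus strand, Hgd at chr11:76643768-76644017 on the minus strand, Cth at chr2:249661067-249661316 on the minus strand and Oat at chr1:196797755-196798004 on the minus strand. The start used for Hgd lies 9 bases from the gene's annotated start on its strand, and those of the others lie at their annotated starts.
Hpd: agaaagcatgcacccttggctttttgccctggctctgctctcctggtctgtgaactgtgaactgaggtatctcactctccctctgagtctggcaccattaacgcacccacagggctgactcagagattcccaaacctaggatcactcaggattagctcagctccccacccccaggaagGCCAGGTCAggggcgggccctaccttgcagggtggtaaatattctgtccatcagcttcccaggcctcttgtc
Hgd: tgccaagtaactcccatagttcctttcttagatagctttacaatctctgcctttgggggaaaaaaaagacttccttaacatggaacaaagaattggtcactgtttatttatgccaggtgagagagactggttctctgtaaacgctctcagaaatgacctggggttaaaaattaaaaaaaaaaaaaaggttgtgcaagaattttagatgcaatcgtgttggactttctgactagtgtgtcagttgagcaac
Cth: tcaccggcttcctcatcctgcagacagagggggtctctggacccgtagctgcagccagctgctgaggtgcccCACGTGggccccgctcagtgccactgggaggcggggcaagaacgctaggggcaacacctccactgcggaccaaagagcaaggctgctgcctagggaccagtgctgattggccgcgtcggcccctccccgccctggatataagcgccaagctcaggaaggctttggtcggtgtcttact
Oat: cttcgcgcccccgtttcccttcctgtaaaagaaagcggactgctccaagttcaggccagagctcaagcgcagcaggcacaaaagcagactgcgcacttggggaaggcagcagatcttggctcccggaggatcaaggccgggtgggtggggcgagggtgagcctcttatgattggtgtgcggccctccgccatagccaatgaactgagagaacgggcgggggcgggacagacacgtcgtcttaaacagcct
Windows of 300 bases, the 250 before and 50 from the start, were searched on both strands, and 32 of the 37 members have one in the table. The antioxidant response element core TGACNNNGC, which NRF2 dimers bind, was in 6 of them, Agxt2, Dao, Haao, Hpd, Phgdh and Sardh, against 12.1% of all 33469 windows. The capitals in Hpd mark its match on the reverse strand, 72 bases before the start. The TGATGNAA core that CEBP-ATF dimers such as those with ATF4 bind was in 0 of the 32, against 3.98% of all windows. The E-box CACGTG was in Cth, 178 bases before its start and in capitals above, and in Sardh and Shmt1 (6.42% of all windows). CAAAGTCCA, a site form bound by HNF4, was in Agxt2 and Pipox, against 0.391% of all windows, and GTTAATNAT, part of an HNF1 site, was in Prodh2, against 0.747%. TATAAA was in Agxt2, Ass1, Bhmt, Ddc and Phgdh, against 14.2%. Ddc and Sardh have several windows, and a match in any of them counts for the gene, whereas the shares are per window. The antioxidant and E-box matches of Sardh lie in different windows. No overlap between 2 of these motifs was seen in the 4 sequences shown, and Hgd and Oat hold none of the 6 motifs in this window.

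Aadat, an aminotransferase of kynurenine in tryptophan breakdown and of aminoadipate in lysine breakdown, had the largest difference of the 35 enzymes. It read 3.46, 3.55 and 3.06 on the corn oil arrays and 4.28, 4.20 and 4.88 on the treated arrays. No array of either group came near the other group, and treated replicate 3 was the highest. The difference was 1.10 ± 0.22, or 2.14-fold (limma, adjusted p = 0.116). It was 0.94 ± 0.22 after quantile normalization, and a second probe gave 1.22. Acmsd, the decarboxylase that diverts the kynurenine route away from quinolinate and NAD, was the only member lower at an unadjusted p under 0.05 with 75th percentile scaling. Its corn oil arrays stood at 3.85, 3.31 and 3.62 and its treated arrays at 3.03, 3.21 and 3.21. All 3 treated arrays lay below the corn oil arrays, though only by a small gap to corn oil replicate 2. The change was -0.45 ± 0.15, 1.36-fold lower in treated rats (limma, adjusted p = 0.181), and -0.59 ± 0.15 after quantile normalization.

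The other enzymes of these routes differed by less. Kynu, the kynureninase that makes 3-hydroxyanthranilate, differed by 0.18 ± 0.13, and Haao, which oxidises that product, by 0.25 ± 0.11, with overlapping groups for both. Of the genes outside the 37 that also act on kynurenine, Kmo, the hydroxylase, differed by 0.45 ± 0.16 (limma, adjusted p = 0.189), and the aminotransferases Kyat1 and Kyat3 by -0.26 and 0.29 with adjusted p of 0.393 and 0.542. These 3 are named after their values were seen. Quantile normalization gave 0.35 for Kmo, -0.48 for Kyat1 and 0.24 for Kyat3. Aass, which carries out the first steps of lysine breakdown, differed by -0.18 ± 0.17, with treated replicate 1 above and treated replicates 2 and 3 below all corn oil arrays. For Ddc, the aromatic amino acid decarboxylase of dopamine and serotonin synthesis, the difference was 0.07 ± 0.09, and its dimmer probe gave -0.13. After quantile normalization the median over these 6 enzymes was -0.09, against 0.12 with 75th percentile scaling.

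In arginine, proline and creatine metabolism, Arg2 and Oat were higher and the median over the 7 enzymes was 0.00, or -0.24 after quantile normalization. Arg2, the mitochondrial arginase that splits arginine into ornithine and urea, read -1.25, -0.90 and -1.19 in corn oil rats. In treated rats it read -0.07, -0.58 and 0.36. The groups did not overlap, and the treated arrays were spread more widely (SD 0.47) than the corn oil arrays (SD 0.19). The difference was 1.01 ± 0.24, or 2.02-fold (limma, adjusted p = 0.130), and 1.03 ± 0.24 after quantile normalization. Oat, the aminotransferase that uses the ornithine so made, read 4.79, 4.90 and 4.67 in corn oil rats and 4.96, 5.16 and 5.15 in treated rats. Every treated array was above every corn oil array, by 0.31 ± 0.10 on average or 1.24-fold (limma, adjusted p = 0.176). This difference was 0.10 ± 0.09 after quantile normalization, and a second probe gave 0.18.

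Ass1 and Asl, which together make arginine from citrulline and aspartate, differed by 0.00 ± 0.11 and -0.05 ± 0.12, with 95% intervals from -0.26 to 0.26 and from -0.35 to 0.24. Both were lower on all treated arrays after quantile normalization, by -0.24 ± 0.09 and -0.28 ± 0.11. The 2 proline-family dehydrogenases stood at 0.11 ± 0.16 for Prodh, which oxidises proline, and -0.13 ± 0.10 for Prodh2, which oxidises hydroxyproline. The 4 probes of Prodh ranged from -0.14 to 0.12. Gatm, the amidinotransferase of the first step of creatine synthesis, is described because 1 treated array stood apart and was chosen after its values were seen. Its corn oil arrays were tight, at 4.98, 5.09 and 5.07, whereas treated replicates 1 and 3 were below them at 4.51 and 4.53 and treated replicate 2 was above them at 5.48. A second probe showed the same pattern, with 3.26, 3.12 and 3.30 in corn oil rats and 2.74, 3.51 and 2.85 in treated rats. The mean difference was -0.21 ± 0.27, and without treated replicate 2 it was -0.53.

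**Figure D2:**
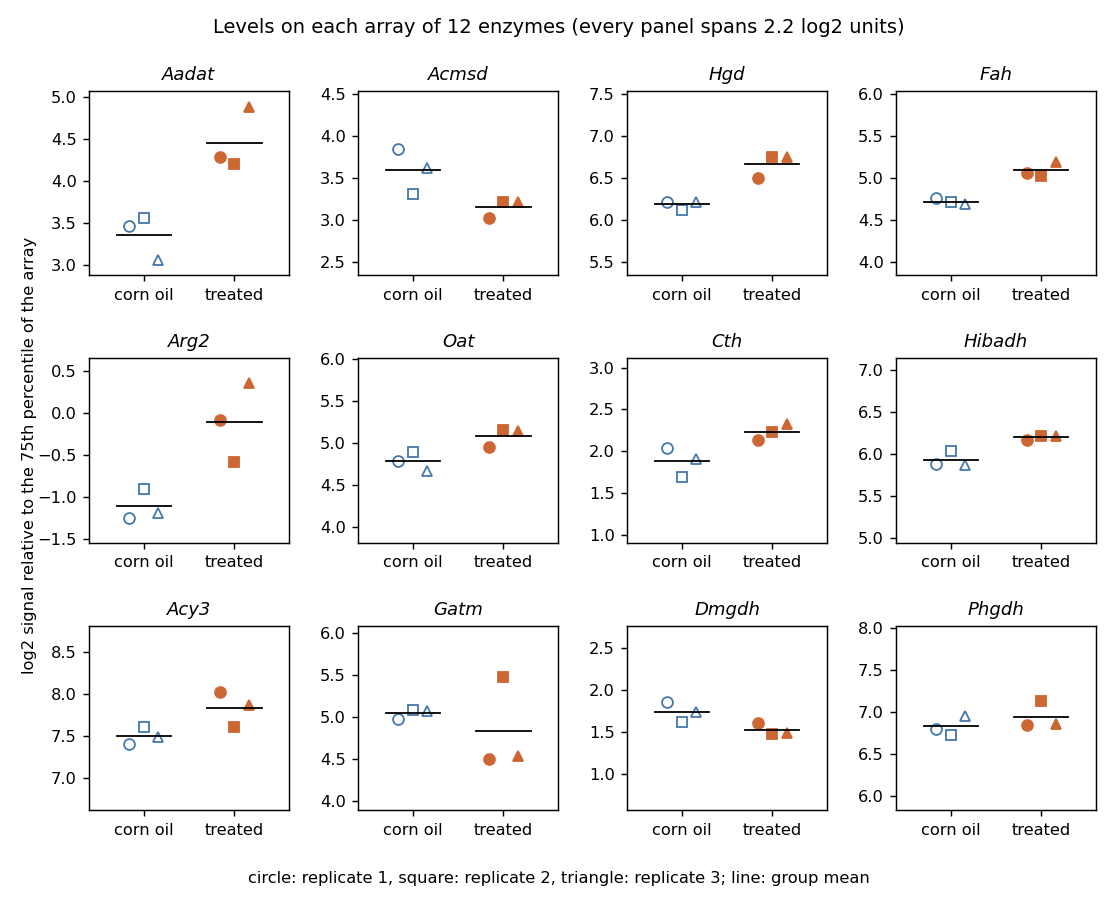
Levels of 12 of the enzymes on every array, as the log2 signal relative to the array's 75th percentile (y axis, all panels with the same span), with open symbols for corn oil, filled symbols for treated rats and a line at each group mean. Aadat, Hgd, Fah, Arg2, Oat, Cth, Hibadh and Acy3 show treated symbols above all corn oil symbols, Acmsd and Dmgdh show them below, and in Gatm the square of treated replicate 2 lies above the others.

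The 7 measured enzymes of glycine, serine and one-carbon metabolism had a median change of 0.04, or -0.08 after quantile normalization. Leaving out 1 array moved this median from -0.094 (without corn oil replicate 3) to 0.16 (without treated replicate 1), so it has no settled sign. None was past an unadjusted p of 0.05 with 75th percentile scaling. Bhmt, which remethylates homocysteine with betaine, read 6.24, 6.75 and 6.34 in corn oil rats and 5.93, 6.07 and 6.60 in treated rats, a change of -0.24 ± 0.22. It was -0.50 ± 0.21 after quantile normalization, and its second probe gave -0.51. Dmgdh, which oxidises the dimethylglycine that this reaction leaves, was lower on every treated array. It read 1.86, 1.62 and 1.74 against 1.61, 1.48 and 1.49, a change of -0.21 ± 0.09 (limma, adjusted p = 0.257), and -0.28 ± 0.10 after quantile normalization. Sardh, the next enzyme of that route, changed by -0.07 ± 0.12 with overlapping groups. Pipox, the peroxisomal oxidase of sarcosine and pipecolate, had the largest mean difference of the 7, 0.28 ± 0.40, which did not exceed its spread. It read -0.11, -0.26 and -1.52 in corn oil rats and -0.55, -0.54 and 0.05 in treated rats. Corn oil replicate 3 was far below the rest on both of its probes, and without that array the difference was -0.16.

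Serine synthesis showed no clear difference. Phgdh, its first enzyme, differed by 0.11 ± 0.11, with a 95% interval from -0.17 to 0.39, and by -0.19 ± 0.09 after quantile normalization. Psph, its last enzyme, is named for its spread, after its values were seen: the corn oil arrays read 2.80, 2.52 and 2.68 and the treated arrays 2.22, 3.38 and 2.53. Treated replicate 2 was the highest of the 6 arrays and treated replicate 1 the lowest, and the mean difference was 0.04 ± 0.29. Shmt2, the mitochondrial enzyme that splits serine into glycine and a folate-bound carbon, differed by 0.22 ± 0.10 (limma, adjusted p = 0.281) and by 0.06 ± 0.11 after quantile normalization.

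Transsulfuration carries sulfur from homocysteine to cysteine in 2 steps, and the enzyme of the second was higher at an unadjusted p under 0.05. Cbs, which condenses homocysteine with serine, read 4.71, 4.61 and 4.69 in corn oil rats and 4.66, 4.59 and 4.71 in treated rats. The difference was -0.02 ± 0.08, with a 95% interval from -0.20 to 0.17. Cth, which cleaves cystathionine to cysteine, read 2.04, 1.70 and 1.91 against 2.14, 2.24 and 2.33. Its groups lay next to each other without overlap, and the difference was 0.35 ± 0.11, or 1.28-fold (limma, adjusted p = 0.174). After quantile normalization the changes were -0.22 ± 0.09 for Cbs and 0.27 ± 0.11 for Cth. The 9 other genes around cysteine that were tested included 5 that were higher and 0 that were lower at an unadjusted p under 0.05 (14.3% and 7.29% of all genes), and 4 and 0 after quantile normalization. Gclc and Gclm, the catalytic and modifier subunits of the enzyme that joins cysteine to glutamate in glutathione synthesis, differed by 1.63 ± 0.23 (limma, adjusted p = 0.0805) and 1.82 ± 0.50 (adjusted p = 0.144). The probe of Gclm lay in the dimmest decile. It read -5.91, -6.10 and -4.84 in corn oil rats and -4.15, -4.37 and -2.86 in treated rats. Csad, which makes the taurine precursor hypotaurine, differed by 0.60 ± 0.15 (adjusted p = 0.130). Quantile normalization gave 1.40 for Gclc, 1.88 for Gclm and 0.62 for Csad.

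All 5 branched-chain enzymes had small positive differences with 75th percentile scaling, between 0.14 and 0.27, and the signs of Bckdha and Ivd turned after quantile normalization. Bckdha and Bckdhb, the subunits of the E1 part of the ketoacid dehydrogenase, differed by 0.14 ± 0.07 and 0.18 ± 0.17. The arrays of Bckdha were tight, at 3.58, 3.60 and 3.62 against 3.75, 3.75 and 3.72, and did not overlap. Those of Bckdhb did overlap, with treated replicate 1 below and treated replicate 2 well above the corn oil arrays. Ivd, of leucine breakdown, differed by 0.16 ± 0.11. In valine breakdown, Hibch differed by 0.19 ± 0.14 and gave 0.18 to 0.19 on its 3 probes. Hibadh, the next enzyme, read 5.88, 6.04 and 5.87 in corn oil rats and 6.16, 6.22 and 6.22 in treated rats. Its difference was 0.27 ± 0.08, or 1.21-fold (limma, adjusted p = 0.163), against a median of 0.23 in its decile of brightness. A second probe gave 0.10, and the difference was 0.03 ± 0.09 after quantile normalization.

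The D-amino acid oxidases and Agxt2 showed no difference beyond their spread with 75th percentile scaling. Dao, which oxidises neutral D-amino acids such as D-serine, differed by 0.07 ± 0.09, and Ddo, which oxidises D-aspartate, by 0.06 ± 0.11. Agxt2, a mitochondrial aminotransferase that also acts on dimethylarginine, read 6.23, 6.44 and 6.73 in corn oil rats and 6.27, 6.49 and 6.39 in treated rats. It changed by -0.08 ± 0.14, and by -0.36 ± 0.14 after quantile normalization, where the treated arrays lay below the corn oil arrays. Of the aminoacylases, which split acylated amino acids, Acy1 differed by 0.24 ± 0.11 with overlapping groups. Acy3, which acts on acetylated aromatic amino acids and mercapturic acids, read 7.41, 7.61 and 7.48 in corn oil rats and 8.02, 7.61 and 7.87 in treated rats. Treated replicate 2 was only just above corn oil replicate 2. The difference of 0.33 ± 0.13, or 1.26-fold (limma, adjusted p = 0.210), became -0.02 ± 0.17 after quantile normalization.

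**Figure D3:**
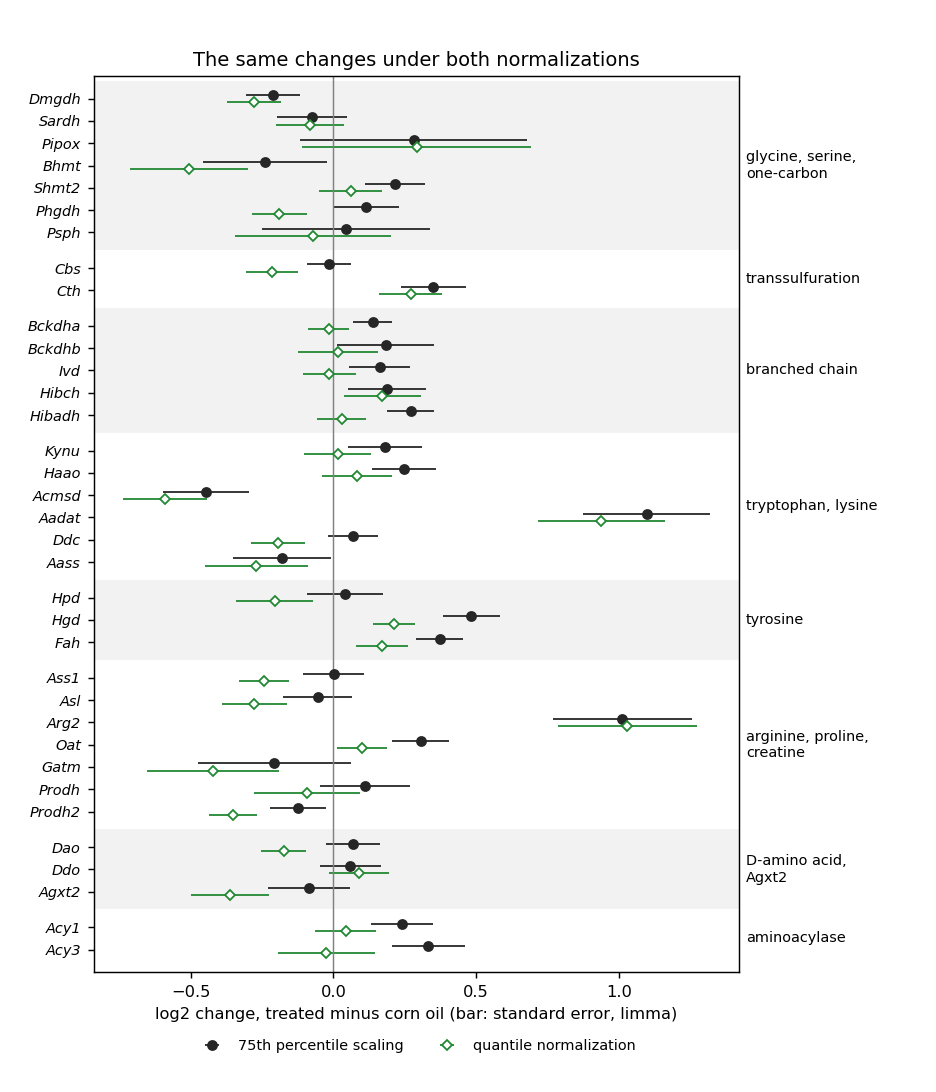
Log2 change of each enzyme, treated minus corn oil (x axis), with its standard error as a bar, for 75th percentile scaling (filled circles) and quantile normalization (open diamonds). Most diamonds lie to the left of their circles, and Aadat and Arg2 stay near 1 and Acmsd below 0 under both.

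Another 109 genes of the same routes were listed, of which 98 were tested and 0 passed the adjusted threshold. At an unadjusted p under 0.05, 38 of these were higher and 3 were lower, with a median change of 0.20. These are 38.8% and 3.06% of the 98, against 14.3% and 7.29% of all genes. Of the 98, 35 lie in the brightest decile, where 42.6% of genes were higher. After quantile normalization the counts were 19 and 9, or 19.4% and 9.18%, against 8.23% and 9.53% of all genes, and the median was 0.03. The counts by route below are read against the same shares of all genes. Around glycine and folate, 13 of 32 were higher and 1 was lower, and 8 and 1 after quantile normalization. They included Glyctk, the glycerate kinase (0.40 ± 0.08, limma, adjusted p = 0.113), and Sdsl, a serine dehydratase-like enzyme (0.61 ± 0.13, adjusted p = 0.123), and the lower gene was Amt, the T protein of the glycine cleavage system (-0.34 ± 0.07, adjusted p = 0.123). Mthfd2, the mitochondrial folate enzyme, is added after its value was seen, at 1.44 ± 0.33 (adjusted p = 0.127). Quantile normalization gave 0.12 for Glyctk, 0.58 for Sdsl, -0.40 for Amt and 1.47 for Mthfd2.

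Around arginine and proline, 5 of 20 were higher and 1 was lower, and 3 and 2 after quantile normalization. Asns, the asparagine synthetase, differed by 1.61 ± 0.20 (limma, adjusted p = 0.0799), and Pycr1, which makes proline, by 1.58 ± 0.29 (adjusted p = 0.106). Agmat, the agmatinase, changed by -0.44 ± 0.11 (adjusted p = 0.135). Quantile normalization gave 1.62 for Asns, 1.62 for Pycr1 and -0.63 for Agmat. Of 17 branched-chain genes, 8 were higher and 1 was lower, and after quantile normalization 3 were higher and 3 lower. Those with the lowest p were Abat, the transaminase of GABA and of a valine catabolite (0.45 ± 0.07, limma, adjusted p = 0.0904), Mccc2, a carboxylase subunit of leucine breakdown (0.31 ± 0.07, adjusted p = 0.130), and Bcat2, the mitochondrial branched-chain transaminase (0.48 ± 0.12, adjusted p = 0.130). Quantile normalization gave 0.37 for Abat, 0.14 for Mccc2 and 0.38 for Bcat2.

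In tryptophan and lysine breakdown, 4 of 11 other genes were higher and 0 lower, and after quantile normalization 1 was higher and 1 lower. Those with the lowest p were Crym, a ketimine reductase (0.38 ± 0.10), Afmid, which makes kynurenine from its formyl form (0.31 ± 0.09), and Gcdh, of the lysine route (0.28 ± 0.08), with adjusted p of 0.144, 0.145 and 0.149 in limma. Quantile normalization changed these to 0.08 for Crym, 0.33 for Afmid and -0.0062 for Gcdh. Around tyrosine, 3 of 6 were higher and 0 lower, whereas after quantile normalization 0 were higher and 2 lower. The 3 were Gstz1, which acts between Hgd and Fah (0.40 ± 0.11), Pcbd1 (0.37 ± 0.10) and Qdpr (0.28 ± 0.08), both of which recycle the cofactor of phenylalanine hydroxylation. Their adjusted p in limma were 0.140, 0.144 and 0.151. Quantile normalization changed these differences to 0.20 for Gstz1, 0.08 for Pcbd1 and -0.0048 for Qdpr. With Hgd, Gstz1 and Fah, the last 3 steps of tyrosine breakdown were each higher at an unadjusted p under 0.05 with 75th percentile scaling, and of these only Hgd was after quantile normalization. None of the 3 other genes around the aminoacylases passed in either direction.

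**Figure D4:**
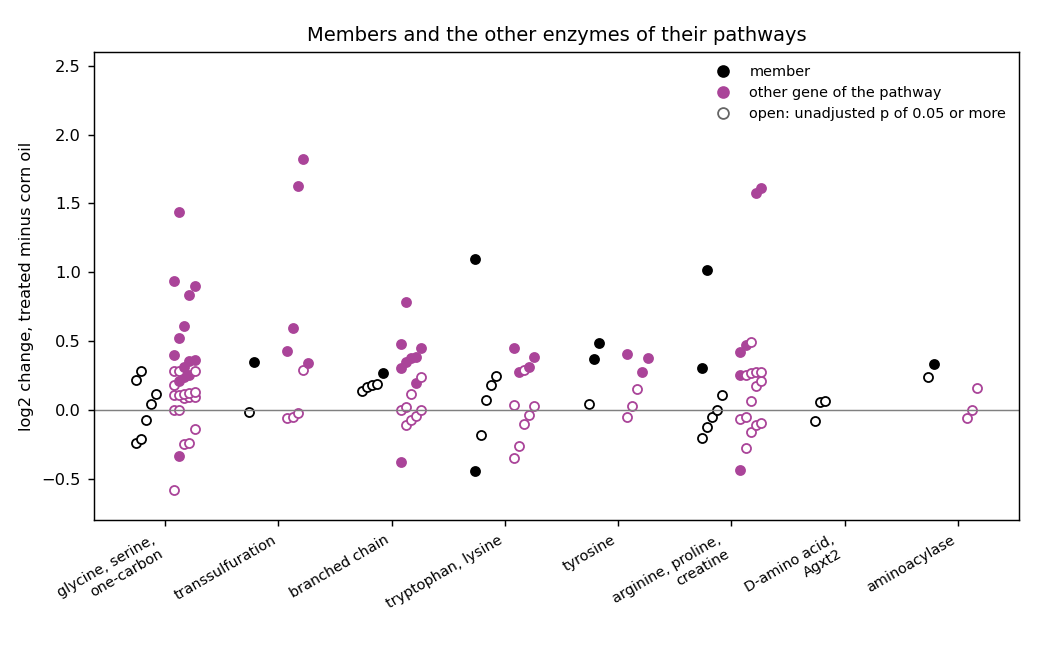
Log2 change, treated minus corn oil, with 75th percentile scaling (y axis) of the members (black) and of the other genes of their routes (purple), grouped by route (x axis), with filled points for an unadjusted p under 0.05. Aadat and Arg2 are the highest black points, and Gclm, Gclc, Asns, Pycr1 and Mthfd2 are the highest purple points.

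The labelled tissue was checked by markers, and all 10 markers of the proximal tubule, where most of these enzymes are found, passed the filter. The log2 of their summed signal lay between 10.61 and 10.74 in corn oil rats and between 10.74 and 10.79 in treated rats. Their median change was -0.06 (-0.32 after quantile normalization), and at an unadjusted p under 0.05 1 was higher and 3 were lower. Over all genes 14.3% were higher and 7.29% lower, and the marker counts below are read against the same shares. The 5 markers of the last, S3, segment of the proximal tubule had a median change of 0.42 (0.35 after quantile normalization). The log2 of their summed signal lay between 7.67 and 7.88 in corn oil rats and between 8.07 and 8.37 in treated rats. Slc3a1 alone read 7.52 to 7.69 in corn oil rats and 7.91 to 8.16 in treated rats, so this sum mostly follows that gene. The median of 0.42 is also its change. Of the 5 markers, 3 were higher at an unadjusted p under 0.05 and 0 were lower. Their changes were 2.39 for Slc22a7, 1.21 for Slc7a13, 0.42 for Slc3a1 (0.07 after quantile normalization), 0.33 for Slc5a1 and -0.50 for Acsm3. The arrays of 1 of them are given, chosen after its values were seen. Slc7a13, a cystine and aspartate transporter of that segment, read 3.55, 3.86 and 3.14 in corn oil rats and 4.48, 4.50 and 5.22 in treated rats, so that corn oil replicate 3 was the lowest and treated replicate 3 the highest, as for Aadat. Slc22a7 was also lowest and highest on these arrays. By contrast, Slc3a1 was lowest on corn oil replicate 2, Slc5a1 highest on treated replicate 1 and Acsm3 highest on corn oil replicate 1. Gclc and Asns, which are not among these markers, were also lowest on corn oil replicate 3 and highest on treated replicate 3. The 5 erythroid markers had a median change of 0.96, with the log2 of their summed signal at 8.65 to 9.16 in corn oil rats and 9.48 to 9.92 in treated rats. Markers of the distal and connecting tubule (4 of 6 tested) had a median change of -0.45, with 2 lower, and summed to 4.50 to 4.87 in corn oil rats and 4.05 to 4.35 in treated rats. Those of the collecting duct (8 of 8) had a median of -0.23, with 3 lower, and summed to 8.13 to 8.28 and 7.98 to 8.37. The 5 hepatocyte markers, of the other organ rich in these enzymes, had a median change of -0.20 and summed to 0.83 to 3.07 and 0.59 to 2.69. The part of these cell types in the members' changes was not tested.

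Of the probes, 68.1% to 70.9% were well above background in corn oil rats and 61.6% to 66.3% in treated rats, and none was saturated. Corn oil replicate 2 was on a slide of its own and the other 5 arrays shared a slide, and without it the log2 change was 1.20 for Aadat, 0.45 for Hgd, 1.12 for Arg2 and -0.59 for Acmsd. On the shared slide, corn oil replicates 1 and 3 were in row 1 and treated replicates 1, 2 and 3 in row 2. Row and treatment cannot be told apart there, also when corn oil replicate 2 is left out.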

How the data were processed

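Cy3-labelled RNA from 6 rat renal cortices was hybridised to 1-colour Agilent arrays, and spot intensity was extracted with Feature Extraction 10.7, per the submitters' processing notes. Per the file headers, the scanner software had subtracted background from the deposited intensity and removed spatial trends, and left it on a linear scale. The authors' value table holds a deposited ratio, each intensity over the 75th percentile of its array. Each of its columns equalled the scanner values of a differently numbered replicate of the same group, so replicate numbers here follow the scanner files, and the table served as an alternative.

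Over 61657 non-control probes, log2 intensity was taken and each array's 75th percentile subtracted. The 64 probes with an outlier flag were dropped, and the 40894 that exceeded background clearly on all 3 arrays of either group entered the fit. Genes were named through the probe's RefSeq accession and a GRCr8 gene table (27460 probes, 15284 genes), with the brightest kept probe standing for a gene. The comparison used limma 3.58.1 (lmFit, eBayes) in R 4.3.3 with no block, and Benjamini-Hochberg adjustment over 11748 genes at 0.05. Standard errors and p-values are limma's. The fit was checked on simulated data with changes larger than that of any member. That check does not cover changes of the size described here. The number of arrays limits the precision.

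The rule for members uses no measured value, but the members, the lists and the tests were chosen with earlier results of these data known. Given array by array by rule are members with an unadjusted p under 0.05 and, in each route, the member with the largest change, and of other genes up to 3 per route with the lowest p. A few more are named as chosen after their values were seen, or to set pairs side by side. The numbers shared by the groups were not used as pairs: deviations of same-numbered arrays correlated at 0.0065, -0.050 and -0.032. Those of differently numbered arrays correlated at -0.025 to 0.051. These values cannot settle whether the animals were paired by design.

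The alternatives were quantile, median and spike-in scaling (7 probes), normexp background correction (offset 50) on median signals, the value table, 2 other filters, the mean over probes, replicate and slide blocks, trend and robust settings, array weights (gene-by-gene estimate), a threshold of 0.1 and leaving out each array. Promoter sequences are those of the RefSeq table.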

Additional observations from a re-analysis of the deposited data

How the results depend on the processing

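Over the 17 alternatives other than spike-in scaling, 18 of the 35 members kept the sign of their log2 change in all, and 17 reversed in at least 1. Another 8 reversed only with spike-in scaling, which moved all genes alike. Not all of the 17 could turn a sign. The replicate block and the trend and robust settings leave every log2 change as it is, and the value table holds nearly the same values. The 2 other filters reversed no member. With array weights 9 members were higher past the adjusted threshold, against 0 in all other settings, a threshold of 0.1 among them. Past an unadjusted p of 0.05, the 8 higher members became 4 with quantile normalization, 2 with spike-in scaling, 12 with array weights, 10 with trend and robust settings and 4 to 9 when each array was left out in turn (4 without corn oil replicate 3 or treated replicate 3). The 1 lower member became 3 with array weights, 6 with quantile normalization, 2 with the slide block, 6 with spike-in scaling, 2 with trend and robust settings and 0 to 2 when each array was left out. The replicate block gave 7 higher and 0 lower. Of the 11748 genes, 2535 were past this unadjusted p in either direction in the main fit. With quantile normalization 2087 genes were past it, with spike-in scaling 2578, with array weights 4370 and with trend and robust settings 2726. The slide block gave 1764 genes, the replicate block 2121, and leaving out each array 1533 to 3610. Corn oil replicate 2 was alone on its slide, so the slide block equals leaving that array out and is no separate check. The members' median of 0.11 became -0.025 with quantile normalization, -0.21 with spike-in scaling, and 0.050 to 0.14 when each array was left out.

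Changes that reversed with array weights were those of Bhmt (0.079), Psph (-0.10), Cbs (0.013) and Ass1 (-0.061). Ddc became -0.029 as the mean over probes, Cbs 0.016 with median scaling, and Ddc -0.0046 and Ass1 -0.014 with normexp. Quantile normalization gave -0.19 for Phgdh, -0.071 for Psph, -0.017 for Bckdha, -0.014 for Ivd, -0.19 for Ddc, -0.21 for Hpd, -0.24 for Ass1, -0.091 for Prodh, -0.17 for Dao and -0.025 for Acy3. The slide block, equal to leaving out corn oil replicate 2, gave -0.028 for Psph, -0.041 for Ass1 and 0.016 for Asl. Spike-in scaling, which moved all genes by a median of -0.32, gave -0.039 for Pipox, -0.10 for Shmt2, -0.21 for Phgdh, -0.28 for Psph, -0.18 for Bckdha, -0.14 for Bckdhb, -0.16 for Ivd, -0.13 for Hibch, -0.049 for Hibadh, -0.14 for Kynu, -0.071 for Haao, -0.25 for Ddc, -0.28 for Hpd, -0.32 for Ass1, -0.014 for Oat, -0.21 for Prodh, -0.25 for Dao, -0.26 for Ddo and -0.080 for Acy1. Leaving out single arrays turned Sardh (-0.13 to 0.023), Pipox (-0.16 to 0.54), Psph (-0.29 to 0.29), Cbs (-0.045 to 0.017), Hpd (-0.048 to 0.17), Ass1 (-0.079 to 0.060), Asl (-0.16 to 0.016), Prodh (-0.013 to 0.23), Ddo (-0.00081 to 0.15) and Agxt2 (-0.20 to 0.046). Apart from the shift of spike-in scaling, the cause was not tested. When 1 array was left out, the 11748 genes chosen on the full set of arrays were kept. With 3 arrays a group, the 95% interval of most members spans 0.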
